A study of Capra hircus with 6 samples.

Results

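The regions described here, deep inside long genes, are those of the authors' list of differing accessible regions whose centre lay inside a protein-coding gene and more than 50 kb from the end of every protein-coding gene, on the numbered chromosomes of the goat. Position alone chose them, with no limit on p beyond the authors' own. There were 2786 such deep intragenic regions, 9.29% of the 29978 listed regions on the 29 numbered chromosomes and part of 30714 listed in all. The study compared mammary epithelial cells of goats (Capra hircus) in the dry period, between 2 lactations, with cells in lactation. It had 3 ATAC-seq libraries for each period, each made from 50,000 cells of the mammary gland. The labels name no strain, age or further treatment for either group, and they do not say whether the libraries came from separate goats, so a p-value from them speaks at most of how far these libraries spread, and that spread may be technical. The RNA-seq part of the study was not analysed here.

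Most known enhancers lie away from promoters, and the introns of long genes hold many of them. ATAC-seq measures where chromatin is open: the Tn5 transposase cuts and tags accessible DNA, and stretches with many tags appear as accessible regions. A region deep inside a long gene is far from the outer ends of every protein-coding gene. Start sites inside genes were not looked at here. Such a region may therefore be an intronic element or an internal promoter, annotated or not. Such an element may act on the gene around it or on a distant one, and position alone does not tell which.

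The authors' deposited table gives, for each region that differed between the periods at p under 0.001, its position, width, fold difference, p and false discovery rate (FDR). It gives no value for any single library, so no level or depth per library is printed and depth is unknown. Every region belongs to 1 of 2 sets by the number in its name, read here as the direction of the difference, since every fold in both sets is above 1. The table's title names the dry period first, but nothing used here states which set is more open in which period, so the direction is given by set only. Coordinates are the authors', counted from 1; the sources used here do not give their genome build. Gene positions came from the goat RefSeq table of assembly ARS1.2. Each large sequence of the list was given the chromosome whose gene ends most often lay within 1000 bp of its regions. A best match is therefore built in. The 29 sequences took 29 different chromosomes. The share of regions near those ends was at least 1.26 times that for the next best chromosome.

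Deep intragenic regions were split almost evenly between the sets, whereas set 1 dominated elsewhere. Set 1 held 1516 of the 2786 and set 2 held 1270, so that 45.6% belonged to set 2 (43.7 to 47.4%, the 95% interval of Wilson's method). Among the other 27192 listed regions the share was 23.5% (23.0 to 24.0%). Deep intragenic regions made up 6.79% of all set 1 regions and 16.6% of all set 2 regions. The intervals cover counting error only, and regions of 1 gene are not independent of each other.

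The even split went with fewer set 1 regions, and with about as many set 2 regions as elsewhere. Deep intragenic sequence covered 376.6 Mb, 15.3% of the numbered chromosomes. It held 4.03 set 1 regions per Mb, against 9.96 per Mb over all other sequence. Set 2 regions numbered 3.37 per Mb there and 3.06 per Mb over all other sequence. Sequence inside genes but within 50 kb of a gene end held 16.4 set 1 and 4.51 set 2 regions per Mb. Sequence outside genes and over 50 kb from any gene end held 2.33 and 1.66 per Mb. The list holds differing regions only, so the number of open regions per Mb in each place is unknown. These densities do not show what share of open regions differed.

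**Figure D1:**
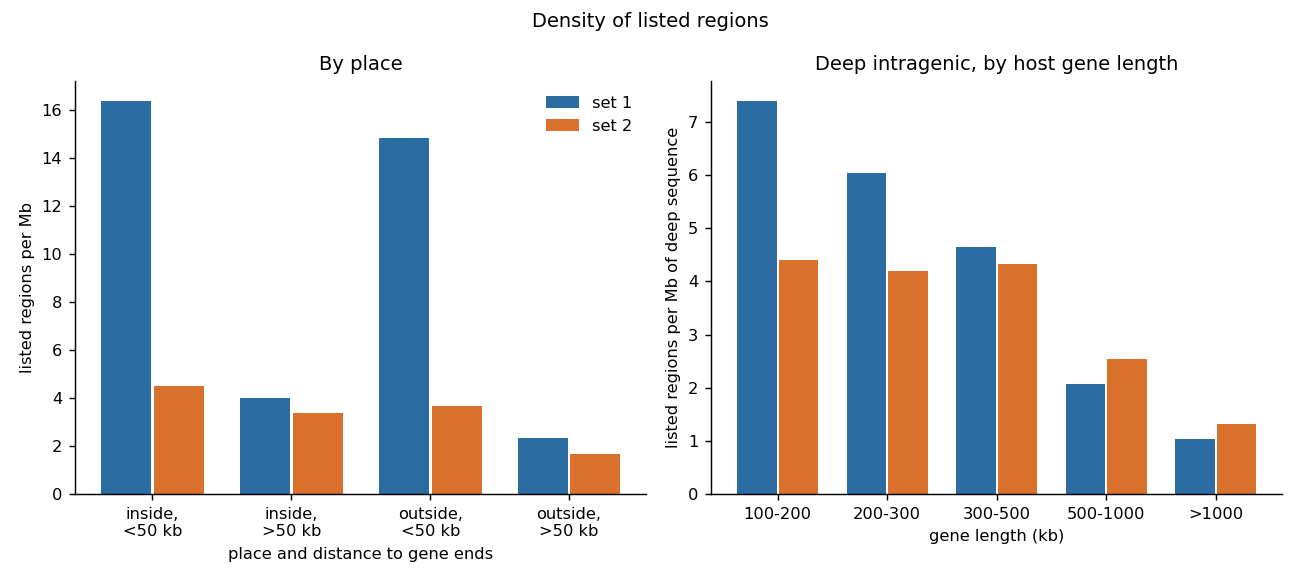
Listed regions per megabase in set 1 (blue) and set 2 (orange): left, by place inside or outside protein-coding genes and distance to the nearest gene end; right, deep intragenic regions by length of the gene around them. Set 1 stands at 16.4 per Mb in genes near their ends and at 4.03 per Mb deep inside, and in genes longer than 500 kb set 2 was the denser set.

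Regions outside genes but as far from gene ends had a mix nearer to that of the deep intragenic regions than to that of all others. Their set 2 share was 41.6% (40.0 to 43.2%) of 3565 regions. Inside genes the share was 9.62% within 3 kb of a gene end, 22.5% from 3 to 10 kb, 32.0% from 10 to 25 kb and 39.7% from 25 to 50 kb. Among the deep intragenic regions it was 41.6% of 1581 from 50 to 100 kb, 49.5% of 912 from 100 to 200 kb and 52.3% of 258 from 200 to 500 kb. Beyond 500 kb it was 74.3% (57.9 to 85.8%) of 35 regions, but those lay in 12 genes and 22 of them in C28H10orf11, DLG2 and NAALADL2. The share was higher in each of these ranges inside genes than outside them, except within 3 kb of a gene end, where it was 12.5% outside.

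**Figure D2:**
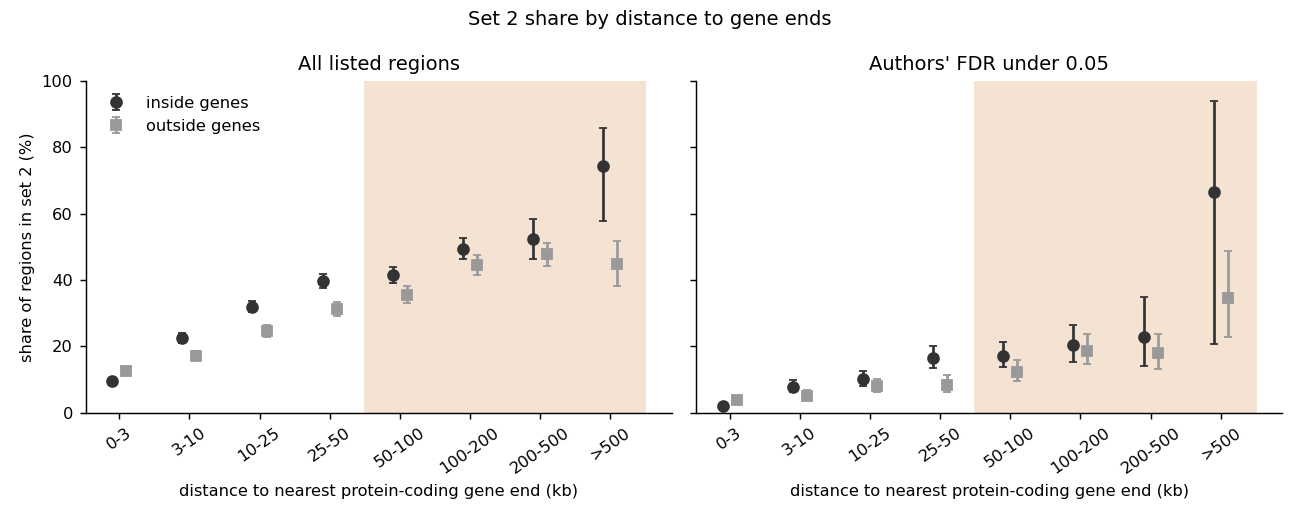
Share of listed regions in set 2 (percent, with 95% Wilson intervals) by distance to the nearest protein-coding gene end (kb), inside genes (circles) and outside them (squares), for all listed regions (left) and those with the authors' FDR under 0.05 (right). The shaded ranges hold the deep intragenic regions; on the left the share inside genes climbs from 9.62% at gene ends to 52.3% at 200 to 500 kb.

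The share was not higher just inside the limit of 50 kb than just outside it. Just outside it, from 45 to 50 kb, 272 regions inside genes had a set 2 share of 40.1% (34.4 to 46.0%). Just inside, from 50 to 55 kb, another 272 had a share of 31.2% (26.0 to 37.0%). Relative position along the gene went with smaller differences. Measured from the gene's nearer end, the set 2 share was 53.7% (40.6 to 66.3%) of 54 regions in the outer 10% of the gene's length. In each further 10% inward it lay between 44.0 and 47.0%. These ranges hold genes of different lengths, since only very long genes have deep sequence in their outer 10%. The set 2 share differed by gene length, as given below, so the ranges do not compare position alone.

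By chromosome, the set 2 share of deep intragenic regions exceeded that of the other regions on 28 of 29 chromosomes. The exception was chromosome 24, at 27.9% against 33.1%. The median chromosome had 46.7%, the highest was chromosome 27 with 64.5%, and set 2 was the majority on 6. Against regions outside genes and equally far from gene ends, the deep intragenic share was higher on 19 of 29.

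The authors' FDR was under 0.05 for 649 deep intragenic regions, 526 in set 1 and 123 in set 2. That is 34.7% of the set 1 regions and 9.69% of the set 2 regions, where the same shares over all listed regions on numbered chromosomes were 34.2% and 9.24%. Within each set, then, deep intragenic regions passed the FDR about as often as listed regions in general. The share in set 2 among those that passed was 19.0% (16.1 to 22.1%), against 7.62% of the other regions that passed. FDR values follow p separately in each set, and the limit of 0.05 fell at a p of 6.21e-05 in set 1 but 5.63e-06 in set 2. At 1 limit for both sets, a p under 1e-05, 447 deep intragenic regions were left and 154 of them (34.5%, 30.2 to 39.0%) were in set 2, against 15.7% elsewhere; over all listed regions 18.9% of set 1 and 11.5% of set 2 passed it.

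Among regions listed at p under 0.001, folds in the authors' deposited table were somewhat larger far from gene ends. Folds of open regions that were not listed are unknown, so these medians describe listed regions only. The median fold of deep intragenic regions was 2.64 in set 1 (quartiles 2.0 and 3.59) and 3.92 in set 2 (2.85 and 5.52), against 2.38 and 3.52 elsewhere. Regions outside genes over 50 kb from a gene end had medians of 2.74 and 4.00. The deep intragenic folds ran from 1.24 to 18.0 in set 1 and from 1.26 to 30.7 in set 2. The median width was 300 bp in both sets, and 400 bp in set 1 and 500 bp in set 2 where the FDR was under 0.05.

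Deep intragenic regions lay in 1063 genes, called host genes below, out of 2439 that have any such sequence. A region held by 2 overlapping genes counts for both, which touched 2 regions. Host genes had a median length of 242.7 kb, against 145.0 kb for genes with deep sequence and no region and 17.8 kb for all 19063 protein-coding genes. A single region was all that 471 host genes held, 159 held 5 or more and 29 held 10 or more. Set 1 regions alone were found in 386 host genes, set 2 regions alone in 362, and both in 315.

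Longer genes held fewer set 1 regions per Mb of deep sequence in each length range, and a larger set 2 share. Genes of up to 200 kb have no sequence over 100 kb from their ends, whereas longer genes reach farther. Gene length and the distance to gene ends given above were therefore not separated. Genes of 100 to 200 kb held 7.40 set 1 and 4.40 set 2 regions per Mb of deep sequence, a set 2 share of 37.3%. Genes of 200 to 300 kb held 6.04 and 4.20 per Mb (41.1%), and genes of 300 to 500 kb 4.65 and 4.32 (48.2%). Set 2 density was thus nearly level up to 500 kb, and it was lower beyond. Genes of 500 to 1000 kb held 2.08 and 2.54 per Mb (55.0%), and genes over 1000 kb 1.03 and 1.32 (56.2%). Some of the longest genes held no listed region of any kind. Examples, chosen after their values were seen, are LRP1B (2198 kb), a large endocytic receptor, CSMD1 (2085 kb), the presynaptic adhesion protein NRXN3 (1816 kb), and ERBB4 (1297 kb), the neuregulin receptor that acts in the lactating mammary epithelium of mice.

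**Figure D3:**
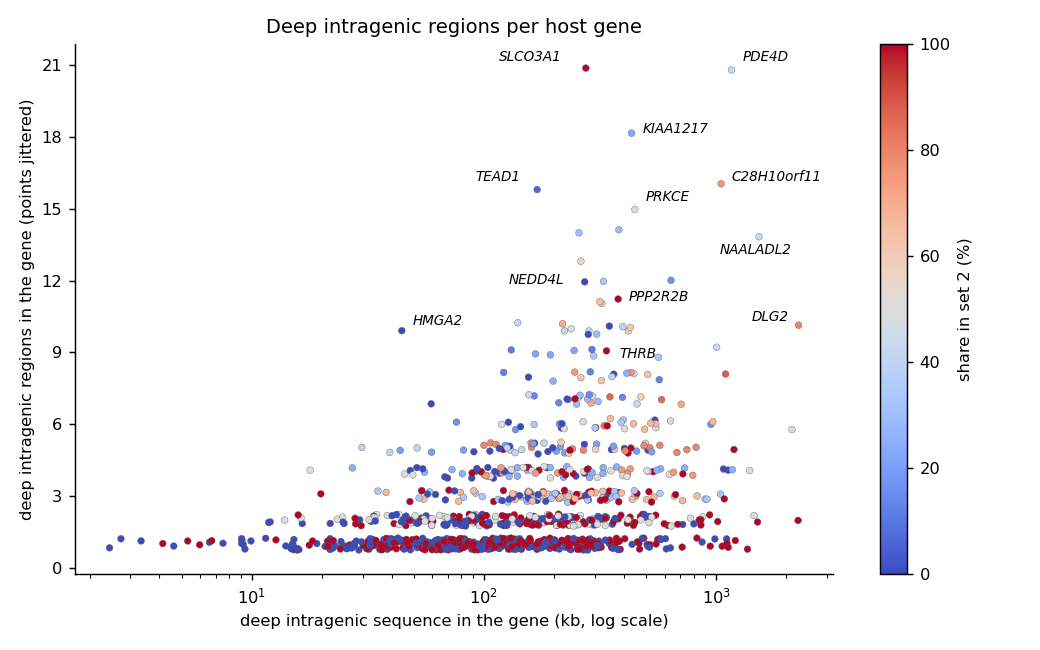
Each point is 1 of the 1063 host genes, placed by its deep intragenic sequence (kb, log scale) and its number of deep intragenic regions, and coloured by the share of those regions in set 2. SLCO3A1 and PDE4D hold 21 each; SLCO3A1 is all set 2, NEDD4L and HMGA2 all set 1, and PDE4D mixed.

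SLCO3A1 and PDE4D held the most regions, 21 each, and differed in their make-up. SLCO3A1 encodes an organic anion transporter of the plasma membrane, and all 21 of its regions were in set 2, over 246.0 kb of a 374.7 kb gene on chromosome 21. Their folds ran from 3.17 to 10.2 in the authors' deposited table, and 7 had an FDR under 0.05, the lowest at chr21:14388701-14389400 (fold 4.28, FDR 9.63e-06) and chr21:14215401-14215900 (fold 5.28, FDR 1.20e-05). Over all listed set 2 regions on numbered chromosomes 9.24% passed that limit. No listed region lay within 3 kb of either end of SLCO3A1.

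PDE4D encodes a phosphodiesterase that breaks down cyclic AMP, and its 1265 kb gene is transcribed from several promoters in other mammals. Its 12 set 1 and 9 set 2 regions were separated along the gene. Measured from the end with the lower coordinate, all 11 regions between 79.0 and 450.4 kb were in set 1, 6 of them with FDR under 0.05. Beyond that lay 10 regions, from 473.9 to 1142 kb, of which 9 were in set 2 and none had FDR under 0.05. Over all listed regions on numbered chromosomes 34.2% of set 1 and 9.24% of set 2 passed that limit. The split along PDE4D was seen in the data and was not tested.

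C28H10orf11, the goat counterpart of human LRMDA, a gene of melanocyte differentiation, held its sets in different stretches too. Of its 16 regions, 12 were in set 2 and lay between 343.8 and 684.4 kb of the 1151 kb gene, with 1 set 1 region among them at 537.4 kb. The other 3 set 1 regions lay from 937.6 to 1089 kb. One set 2 region, at chr28:13901101-13901900, had a fold of 27.1 and FDR 0.00290 in the authors' deposited table, the largest fold of any deep intragenic region with FDR under 0.05.

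LPP, an actin-associated protein of cell adhesions, had its set 1 regions in one block. All 10 of them lay between 539.4 and 652.9 kb of its 739.1 kb, beside 2 in set 2. The other genes among the 12 richest were mixed or leaned to set 1. KIAA1217 held 14 set 1 and 4 set 2 regions, FNDC3B 10 and 4, and ARHGAP26, a GTPase-activating protein, also 10 and 4. TEAD1, the DNA-binding partner of YAP in the Hippo pathway, held 15 in set 1 and 1 in set 2, with its lowest FDR at chr15:42476301-42476800 (fold 2.51, FDR 0.00453 in the authors' deposited table).

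The protein kinase C genes PRKCE and PRKCH were evenly divided, with 7 set 1 and 8 set 2 regions and 6 and 7. In PRKCE the sets alternated along the gene in 7 runs. Its region at chr11:28000001-28001100 had the next to lowest set 1 FDR of all deep intragenic regions, 6.79e-12 at a fold of 2.34 in the authors' deposited table. NAALADL2, a glutamate carboxypeptidase-like gene of 1631 kb, held 8 and 6, also interleaved. NEDD4L, a ubiquitin ligase that limits epithelial sodium channels at the cell surface, held 12 regions, all in set 1. Of these, 5 had FDR under 0.05 in the authors' deposited table, the lowest 9.71e-07 at chr24:57465001-57465400 with a fold of 3.24. Over all listed set 1 regions on numbered chromosomes 34.2% passed that limit.

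**Figure D4:**
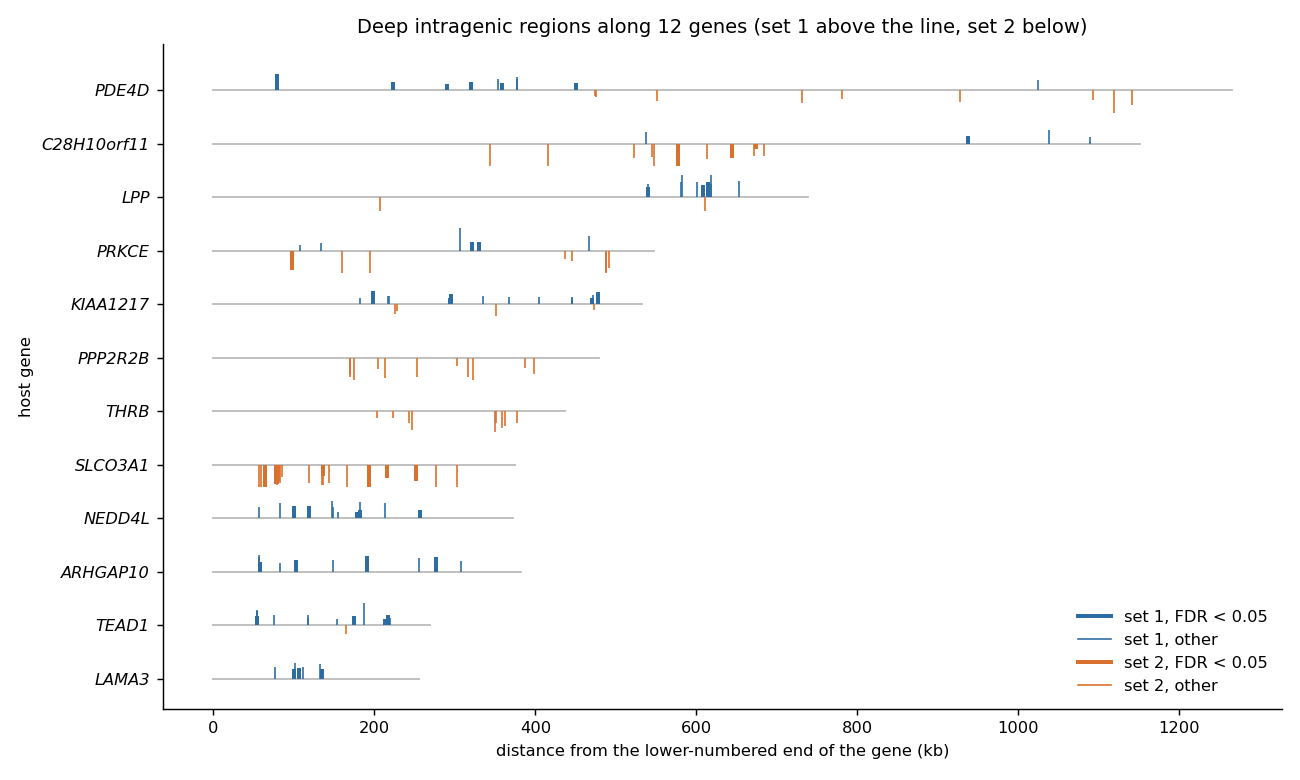
Deep intragenic regions along 12 genes, by distance from the lower-numbered end of the gene (kb): set 1 ticks point up, set 2 ticks down, tick length follows the authors' fold up to a fold of 6, and thick ticks have the authors' FDR under 0.05. PDE4D turns from set 1 to set 2 past 450.4 kb, C28H10orf11 has 12 set 2 regions up to 684.4 kb and 3 set 1 regions from 937.6 kb on, and SLCO3A1, PPP2R2B and THRB carry set 2 alone.

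Among the 159 host genes with 5 or more regions, 25 held set 1 alone, 11 held set 2 alone and 123 held both. The set 1 genes below were named after their values were seen. Besides NEDD4L they included SAMD12 and the GTPase-activating protein ARHGAP10 with 10 each, and the Rac activator TIAM1 with 8, of which 5 had FDR under 0.05. HMGA2, an architectural chromatin protein of embryonic and proliferating cells, packed 10 set 1 regions into 44.3 kb of deep sequence, and 3 had FDR under 0.05. LAMA3, the alpha chain of laminin-332 in epithelial basement membranes, held 8 with 4 under that limit. COL4A3, a basement membrane collagen chain, held 7, again with 4 under it, and the heparan sulphate polymerase EXT1 held 6 with 2 under it. SYN3, DOCK9 and RUNX2, with 6, 5 and 5 regions in set 1 alone, had none under it. Over all listed set 1 regions on numbered chromosomes 34.2% passed that limit, and the counts per gene are to be read beside it.

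After SLCO3A1, the genes with set 2 alone and the most regions were PPP2R2B and THRB. PPP2R2B, a regulatory subunit of protein phosphatase 2A, held 11 and THRB, the thyroid hormone receptor beta, held 9. In the authors' deposited table their folds ran from 2.37 to 8.07 and from 1.75 to 5.57, and none of these 20 regions had FDR under 0.05, a limit that 9.24% of all listed set 2 regions passed. SASH1 held 7, and CREB5, a CRE-binding transcription factor, held 6 with a fold of up to 19.9 in the authors' deposited table, none under an FDR of 0.05. TRABD2B and FBXL17 held 5 each, with 1 under that limit in either gene, at FDR 0.00183 and 0.00486 in the authors' deposited table.

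In genes whose deep regions were all of 1 set, that set also led in number at the ends, by counts with no test. For set 2 the interval included an even split. In the 67 genes with 3 or more deep regions, all in set 1, 54 listed regions lay within 3 kb of the genes' ends. They lay at 29 of these genes, and 52 of them were in set 1. In the 50 genes with 3 or more, all in set 2, 28 such regions lay at the ends of 17 genes, and 17 of them (60.7%, 42.4 to 76.4%) were in set 2. In the 244 genes with 3 or more regions and both sets it was 16 of 149 (10.7%), and over all 1063 host genes 74 of 550 (13.5%). Among the 11 genes with 5 or more regions in set 2 alone, THRB had 2, CREB5 3 and SASH1 1 set 2 region at their ends and no set 1 region there. TRABD2B had 2 of each set at its ends, BRE and FBXL17 1 set 1 region each, and the other 5 genes none.

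Neighbouring deep regions tended to share their set, more so the closer they lay. Of 1725 neighbouring pairs in 1 gene, 1194 (69.2%, 67.0 to 71.4%) were in the same set, against 529 of 1032 pairs (51.3%, 48.2 to 54.3%) in different genes. The median gap was 20.5 kb for pairs in 1 gene and 1378 kb for pairs in different genes, so this contrast mixes a shared gene with distance. Pairs in 1 gene up to 5 kb apart agreed in 87.0% of cases, pairs 5 to 50 kb apart in 66.0% and pairs over 50 kb apart in 58.4%. Outside genes and over 50 kb from gene ends the same shares were 91.9, 72.4 and 58.5%, so the pattern was not limited to genes. Neighbouring regions can be parts of 1 accessible stretch: 243 pairs lay within 1 kb.

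Few deep intragenic regions lay at an annotated noncoding gene. An end of any noncoding gene was within 3 kb of 32 regions (1.15%), 22 from set 1 and 10 from set 2. Long noncoding RNAs accounted for 17, pseudogenes for 7, tRNA genes for 4 and miRNA genes for 2. Outside genes and over 50 kb from protein-coding ends the figure was 123 of 3565 (3.45%).

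The smallest p in set 1 lay in CNIH3, which encodes an auxiliary subunit of AMPA receptors, at chr16:26315001-26316000, with a fold of 4.61 and FDR 2.08e-14 in the authors' deposited table. After PRKCE came PTK2, the focal adhesion kinase, at chr14:79227701-79228300 (fold 2.94, FDR 1.15e-10 in the authors' deposited table). KLHL2, an adaptor of a ubiquitin ligase, followed at chr17:69081601-69082300 (fold 4.02, FDR 1.31e-10 in the authors' deposited table). PRKAG2, a regulatory subunit of AMP-activated protein kinase, held 6 set 1 regions and 1 in set 2. Its lowest FDR in the authors' deposited table was 1.69e-09, at chr4:5718801-5719300 with a fold of 1.87. The transcription factor SOX5 (fold 6.19, FDR 4.92e-09), the phosphodiesterase PDE11A (5.82, 5.21e-09) and SIPA1L1, a Rap GTPase-activating protein (2.55, 1.67e-08), completed the 8 genes named by p in the authors' deposited table.

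In set 2 the smallest p lay in PLXNA2, a semaphorin receptor of axon guidance. That region, chr16:73781501-73782500, had a fold of 6.48 and FDR 7.34e-19 in the authors' deposited table, and the gene's other 2 deep regions were also in set 2. The next set 2 genes were far behind it: TPRG1 (fold 3.58, FDR 4.17e-06), the proprotein convertase PCSK6 (3.53, 4.39e-06) and TBC1D5, a GTPase-activating protein of membrane traffic (4.40, 5.38e-06), all in the authors' deposited table. SLCO3A1 came next. SPTLC3, a subunit of the enzyme that begins sphingolipid synthesis, had both its regions in set 2 with FDR under 0.05, the lower at chr13:6476701-6477700 (fold 3.53, FDR 9.99e-06 in the authors' deposited table). The guanine nucleotide exchange factor VAV3 (3.43, 1.11e-05) and MYO5B, a motor of apical membrane recycling in epithelia (3.41, 1.53e-05), closed the list in the authors' deposited table. VAV3 held 5 set 2 regions and 1 in set 1, and MYO5B 1 of each.

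By size of fold among regions with FDR under 0.05, set 1 was led by WWOX, an oxidoreductase at a common fragile site, at 11.8 (FDR 0.0256 in the authors' deposited table). LHFPL3 (9.58), the homeobox factor MEIS2 (9.26), the scaffold MAGI2 (8.61) and LMO7 (8.47) followed in the authors' deposited table. MEIS2 held 4 regions, all in set 1. WWOX held 4 others, all in set 2, and none of these had FDR under 0.05, a limit that 9.24% of all listed set 2 regions passed.

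After C28H10orf11, the largest set 2 folds in the authors' deposited table lay in the plexin PLXNA4 (10.0, FDR 1.68e-05), the clotting factor gene VWF (9.63, FDR 2.95e-05), the core fucosyltransferase FUT8 (8.75, FDR 0.00774) and the sialyltransferase ST6GALNAC3 (8.75, FDR 0.000562). VWF also held a set 1 region (fold 2.27, FDR 0.00260 in the authors' deposited table) close by, their centres 54.3 and 57.3 kb from the gene's lower-numbered end, so neighbours of opposite sets can both pass the FDR. All 4 regions of ST6GALNAC3 and both of FUT8 and PLXNA4 were in set 2.

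Gene groups were described with 21 lists of long genes and cell markers, which matched 747 of 783 listed genes. For all genes with deep sequence the set 2 share was 45.6%, as above, and a list is read beside that value with no test. That share differed by gene length, from 37.3% in genes of 100 to 200 kb to 56.2% in genes over 1000 kb. The lists were not matched for gene length, so a list of very long genes may differ from 45.6% for that reason, which was not tested. For some lists and for most marker lists, counts of regions with FDR under 0.05 are given within each set. They are to be read beside the 34.2% of set 1 and 9.24% of set 2 over all listed regions, since the limit was stricter in p for set 2. Genes of focal adhesions, the actin cytoskeleton and the dystrophin complex had the lowest share of any list with more than 2 regions, 26.6% (20.0 to 34.5%) of 139 regions in 31 of 42 genes. FDR was under 0.05 for 40 of 102 set 1 regions (39.2%) and 2 of 37 set 2 regions (5.41%). ARHGAP26, LPP, ARHGAP10 and TIAM1 supplied 38 of the set 1 regions. DST, which encodes the cytolinker dystonin, leaned the other way with 2 in set 1 and 6 in set 2.

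Extracellular matrix genes had a set 2 share of 34.1% (24.8 to 44.9%) of 82 regions. FDR was under 0.05 for 22 of 54 in set 1 (40.7%) and 2 of 28 in set 2 (7.14%). LAMA3 held 8 set 1 regions. COL23A1, a transmembrane collagen, held 7 and 1, and THSD4, a microfibril protein, 6 and 3. ADAMTSL1, a secreted relative of ADAMTS proteases, held 5 and 4.

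Axon guidance genes had the highest share, 78.4% (62.8 to 88.6%) of 37 regions. The regions lay in 21 of 26 genes, and 15 of these genes held set 2 alone. Besides PLXNA2 and PLXNA4, the semaphorin coreceptor NRP2 and the semaphorin SEMA5A held 3 set 2 regions each, and the secreted cue NTN1 held 2, one of them with FDR 8.14e-05 in the authors' deposited table. The ephrin receptors EPHA4 and EPHA6 and the netrin relative NTNG1 held 1 region each, in set 1. SLIT1, a ligand of ROBO receptors, held 3 in set 1 and 1 in set 2, and SLIT2 held 1 and 2. PLXDC2, which the list counts although it is not a plexin, also held 1 and 2. With FDR under 0.05 the list held 4 of 8 set 1 and 4 of 29 set 2 regions (50.0 and 13.8%).

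Synaptic adhesion and scaffold genes had a share of 73.3% (59.0 to 84.0%) of 45 regions in 16 of 35 genes. DLG2, a scaffold of the postsynaptic density and the longest gene with deep sequence at 2365 kb, held 2 and 8, none with FDR under 0.05, and the region farthest from any gene end, 1155 kb away. TENM4, a teneurin, held 1 and 6, and CTNNA2, a neural alpha catenin, 0 and 5. These genes were sparse in regions: 0.492 set 1 and 1.35 set 2 per Mb.

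Ion channel and glutamate or GABA receptor genes had a share of 58.6% (45.8 to 70.4%) of 58 regions. The calcium release channel ITPR1 held 5 set 1 and 2 set 2, and the cation channel TRPM3 5 and 0, while the calcium channel CACNA1C and the potassium channels KCNMA1, KCNQ5 and KCNH1 held 3 each in set 2 alone. FDR was under 0.05 for 12 of 24 in set 1 (50.0%) and 4 of 34 in set 2 (11.8%). Membrane transport genes on the list had 65.0% of 40, including the calcium pump ATP2B2 with 4 and the sodium-calcium exchanger SLC8A1 with 3, all set 2. The transporter gene SLCO3A1, with its 21 set 2 regions, was not on that list. Both SLC8A1 and SLC24A3, a sodium-calcium-potassium exchanger with 2 set 1 and 1 set 2, had 2 regions with FDR under 0.05, in opposite sets.

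Kinases, phosphatases and their subunits stood at 55.2% of 125 regions, led by PRKCE, PRKCH and PPP2R2B, and phosphodiesterases, cyclases and G protein regulators at 43.2% of 88, led by PDE4D. In the former, FDR was under 0.05 for 24 of 56 in set 1 (42.9%) and 5 of 69 in set 2 (7.25%). STK39, a kinase that controls chloride cotransporters, held 3 and 7. Adherens junction, desmosome and polarity genes stood at 40.9% of 44. SHROOM3, which drives apical constriction, held 6 set 1 and 1 set 2, and the polarity protein PARD3 3 and 4.

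Transcription factors and co-regulators held more regions than any other list, 218, with a share of 47.7% (41.2 to 54.3%), near that of all genes. Single factors were less even than the list. TEAD1 and HMGA2 were nearly or wholly set 1. The polycomb-associated AUTS2 held 1 and 7, the forkhead factor FOXN3 1 and 6, and BACH2, a repressor best known from lymphocytes, 2 and 5. RERE and ATXN1, both transcriptional corepressors, held 4 and 7 each. Chromatin regulators stood at 48.7% of 39 regions, with 7 set 1 and 3 set 2 in SETBP1.

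Nuclear receptors had a share of 70.8% (50.8 to 85.1%) of 24 regions, but 9 of the 17 in set 2 lay in THRB. RORA held 2 and 5, NR6A1 1 and 3, and the oestrogen receptor ESR1 2 and 0. FDR was under 0.05 for 3 of 7 in set 1 and 0 of 17 in set 2. Growth factor and cytokine receptors, with a few of their ligands, stood at 66.7% of 27. EGFR held 1 and 4, and the prolactin receptor PRLR, which carries the main lactogenic signal, held 2 in set 2. In PRLR the lower FDR was 0.405 in the authors' deposited table.

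Genes of lipid and carbohydrate metabolism stood at 45.5% of 44 regions, with both kinds of gene present. ACACA, which makes malonyl-CoA for fatty acid synthesis, held 3 set 1 regions with a lowest FDR of 0.0161 in the authors' deposited table. LPGAT1, an acyltransferase, held 4 in set 1. The glycosyltransferases ST6GALNAC3 and FUT8 held set 2 regions alone, and MGAT5 2 and 3. Genes at common fragile sites, which include PDE4D, NAALADL2 and DLG2, stood at 57.6% of 99 regions and were mostly mixed: 12 of 17 host genes held both sets.

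**Figure D5:**
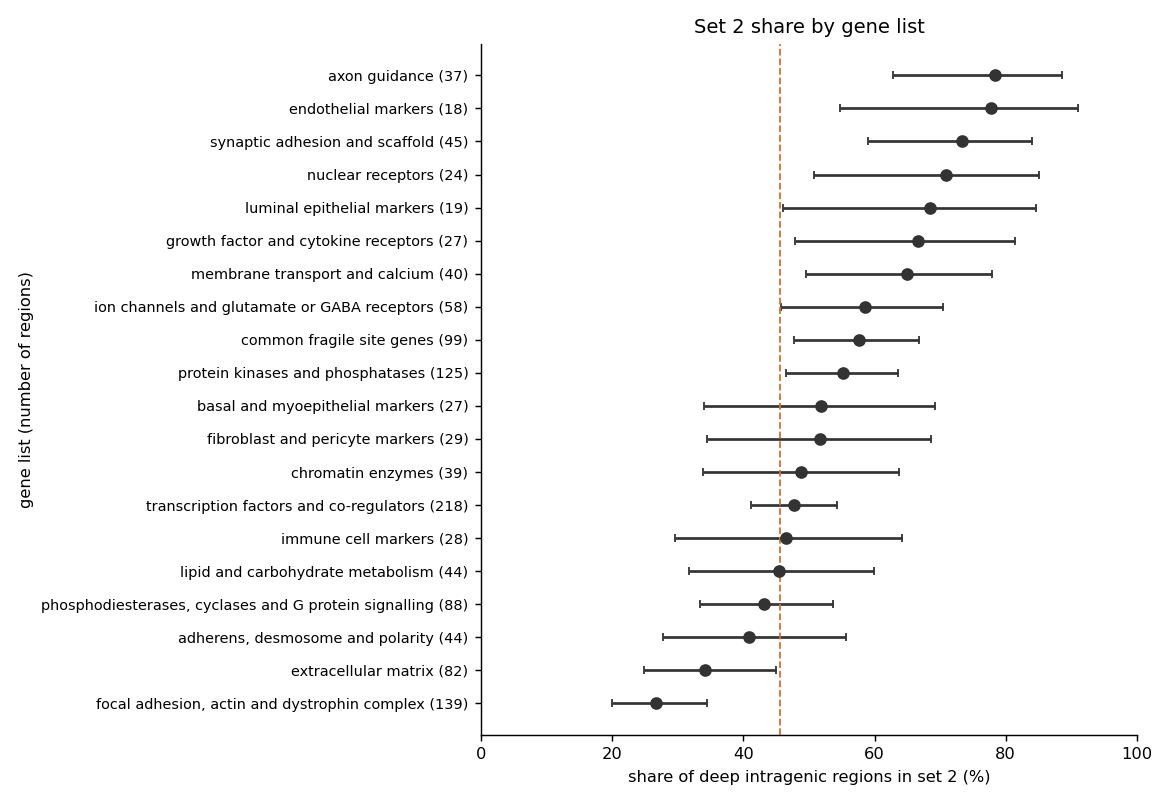
Share of deep intragenic regions in set 2 (percent, with 95% Wilson intervals that cover counting error only) for 20 gene lists, the number of regions in parentheses; the dashed line is the 45.6% of all genes with deep sequence. Axon guidance (78.4%) is at the top and focal adhesion, actin and dystrophin complex genes (26.6%) at the bottom. Adipocyte markers are not drawn, and the lists were not matched for gene length.

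Marker genes of mammary and other cell types were counted the same way, although few are long enough to hold a deep region. Luminal epithelial markers held 19 regions, 6 set 1 and 13 set 2, in 5 of 7 genes. THRB supplied 9 of the set 2 regions. FDR was under 0.05 for 4 of the 6 in set 1 and 0 of the 13 in set 2. GRHL2, an epithelial transcription factor, held 2 set 1 regions centred 62.3 and 63.5 kb from its lower-numbered end, with FDR 0.000847 and 0.000805 in the authors' deposited table. TRPS1 held 2 of each set, and ERBB4 and PGR none. Basal and myoepithelial markers held 13 and 14 in 7 of 8 genes, and FDR was under 0.05 for 5 of the 13 and 1 of the 14. LAMA3 gave 8 of the set 1 regions and DST 6 of the set 2 regions, and the smooth muscle kinase MYLK held 2, in set 2.

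Immune cell markers held 15 set 1 and 13 set 2 regions in 12 of 21 genes, and fibroblast and pericyte markers 14 and 15 in 9 of 13. Endothelial markers held 4 and 14 in 7 of 16, of which 9 of the set 2 regions were in ANO2 and ST6GALNAC3. In the immune list 4 set 1 regions (26.7%) and 5 set 2 regions (38.5%) had FDR under 0.05, the latter in 3 genes. The fibroblast and pericyte list had 6 and 2 such regions, and the endothelial list 1 and 2. A list of differing regions cannot show which cell types the libraries held, since an equally open marker would not be in it. The part of other cell types in these results was not tested.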

How the data were processed

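The study profiled open chromatin by ATAC-seq in 3 dry-period and 3 lactation libraries of goat mammary epithelial cells, sequenced on the BGISEQ-500 per the labels. Bowtie2 2.2.5 and MACS2 appear, without a stated role, among the tools of the submitters' processing notes. The sources used here give neither the program that compared the periods nor the genome build. The deposited table of differing regions gives each region's width in bp, a signal value, a fold, a p-value and an FDR, all from the authors' own comparison of the 6 libraries. The deposited signal value, a score made by the authors, was a fixed multiple of the fold in each set, up to a ceiling of 1000, and was not used further. All 30714 regions in the deposited table had a p-value under 0.001, and the largest FDR was 0.270 in set 1 and 0.858 in set 2.

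From these values were computed each region's centre, its distance to the nearest protein-coding gene end (RefSeq ARS1.2 table), counts per gene, Wilson intervals at 95% and densities per Mb, with Python 3.11.15, pandas 2.3.3 and scipy 1.17.1. The length of a chromosome was taken to its last region or gene end, gaps included. No test of significance was made beyond the authors'. The rule that finds the regions was tested on simulated positions. Named genes are the 12 host genes with the most regions, the 8 per set with the smallest p, the 5 per set with the largest fold at FDR under 0.05 and up to 4 per gene list with the most regions; others were named after their values were seen. The regions and lists were chosen with earlier results of these data known, and 5 list entries whose function did not match their list were removed after values were seen. Alternatives covered the distance, the gene ends used, the p and FDR limits, merging of neighbours and leaving out PDE4D or SLCO3A1.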

Additional observations from a re-analysis of the deposited data

How the results depend on the processing

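The 11 summary values of deep intragenic regions (counts, set shares, medians, densities, host genes) were recomputed under 10 alternatives. Of 99 recomputed values 66 stayed near the reported one (a count within 1.5 times, a share, median or density within its 95% interval). They included every value when the ends of all annotated genes were used, and when the whole region had to lie beyond the distance. They also included every value without PDE4D, and without SLCO3A1, which was chosen after seeing the data. The whole-region rule left 2780 of the 2786 regions, and leaving out either gene left 2765, so these alternatives could hardly move a value. The set 2 share of deep intragenic regions was above that of the other regions in each of the 10 alternatives, with neighbours merged on both sides at 46.7% against 25.2%. With a distance of 25000 bp there were 4709 regions in 1883 genes, 1126 with FDR under 0.05, a set 2 share of 43.2% and densities of 4.86 and 3.69 per Mb in set 1 and set 2. With 100000 bp there were 1205 regions in 464 genes, 265 with FDR under 0.05, a share of 50.8%, a median set 1 fold of 2.71 and densities of 2.74 and 2.83 per Mb. With the authors' FDR under 0.05 alone there were 649 regions in 419 genes, a share of 19.0%, a median set 2 fold of 3.67, median widths of 400 and 500 bp and densities of 1.40 and 0.327 per Mb. With p under 1e-05 there were 447 regions in 325 genes, a share of 34.5%, a median set 2 fold of 3.58, median widths of 500 bp in both sets and densities of 0.778 and 0.409 per Mb. An FDR under 0.01 left 318 regions. Counting regions of 1 set within 1000 bp once gave 3.62 and 3.17 per Mb. The share at the FDR limit is lower than at p under 1e-05 although more regions are kept, and that limit lies at a smaller p in set 2 than in set 1.

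No paired analysis was possible because the table holds no value per library, and no library was left out for the same reason. Depth per library is unknown. The period that each set stands for is not settled here. The use of ARS1.2 genes rests on the assignment of chromosomes by gene ends, which does not settle the genome build.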
